A study of Mus musculus with 2 samples.

Results

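The 10 genes Nos3, Gucy1a1, Gucy1b1, Edn1, Ednrb, Calcrl, Ramp2, Ace, S1pr1 and S1pr3 set the tone and barrier of lung vessels, as makers, cleavers or receptors of small signals. They were found by gene symbol in the array annotation, updated through the gene ID, and 9 of them had a probe among 13840 named genes. No probe carried Gucy1b1 alone in the annotation used here. Each of the 9 had a single probe, and all were above the floor, the median intensity of an array, on both arrays. The list was chosen by its role in lung vessels with the differences between these 2 arrays in view, so its values are a description and none was tested.

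Vascular tone is set by opposing signals between endothelium and smooth muscle. The endothelial nitric oxide synthase encoded by Nos3 makes nitric oxide, which activates soluble guanylate cyclase, a dimer of the products of Gucy1a1 and Gucy1b1, and the cyclic GMP formed relaxes muscle. Endothelin 1, the product of Edn1, contracts vessels, and lung endothelium clears it through the receptor Ednrb. Calcrl and Ramp2 together form an adrenomedullin receptor, Ace on lung capillaries converts angiotensin I and degrades bradykinin, and S1pr1 and S1pr3 are receptors for the lipid sphingosine 1-phosphate, S1pr1 being the one that keeps the endothelial barrier tight.

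The study compared lungs of wild-type FVB/N mice, labelled male, with lungs of Rosa26-Foxm1 mice, transgenic for the forkhead transcription factor Foxm1, for which the labels used here give neither strain nor sex. Both groups had received 15 µg/g of the carcinogen 3-methylcholanthrene, then 6 weekly injections of the tumour promoter butylated hydroxytoluene, 150 µg/g first and 200 µg/g afterwards. Controls and transgenic mice were injected alike, into the peritoneum, so neither group shows untreated lung. The Rosa26 promoter is active in most cell types. RNA of left lobes from 3 mice was pooled for each of 2 arrays, at 12 weeks after the carcinogen.

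With 1 array per group there is no replicate error and no test between the genotypes. What error could be estimated is the probe SD, the error of 1 probe's log2 difference taken from pairs of probes of the same gene. It was 0.31 over 317 genes and 0.37 for dimmer and 0.23 for brighter pairs, and it leaves out differences between mice. Differences are log2 values of normalised intensity, Rosa26-Foxm1 minus wild type. Over 9518 measured genes (above the floor on at least 1 array) they had a median of -0.06, a 5th percentile of -0.71 and a 95th percentile of 0.69. The 12 lung epithelial markers with a probe were all above the floor, and Foxm1, by 1 dim probe, differed by 0.11.

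All 9 measured genes were lower in Rosa26-Foxm1 lung, except that Ramp2 was at 0.03 with median scaling or the deposited values, and 56.0% of all measured genes were below 0. Calcrl, Gucy1a1 and S1pr3 were more than 2-fold lower, beside 1.51% of measured genes lower and 1.98% higher by that much. At the 1.5-fold size the same 3 were counted, no gene was higher and 6 lay between, while 8.45% of all measured genes were lower and 7.08% higher. The median of the 9 differences was -0.51. Since these values chose the list, nothing is read from the counts.

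**Figure D1:**
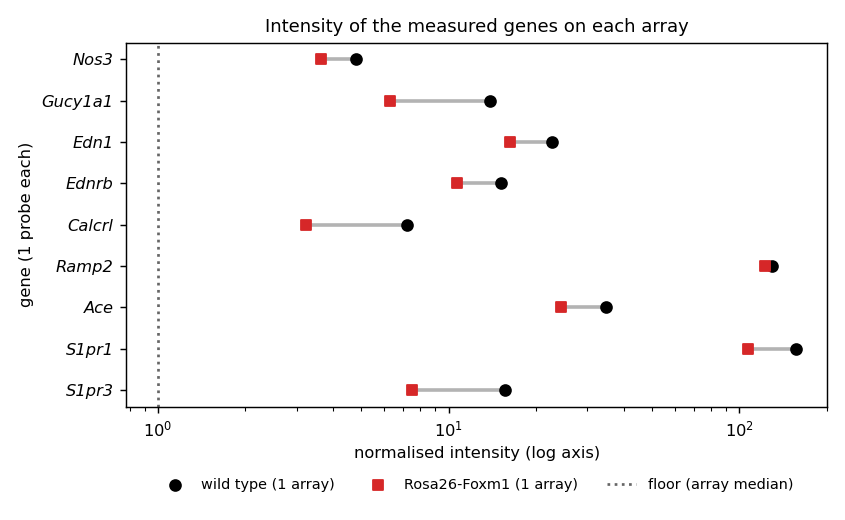
Normalised intensity (log axis) of the 9 measured genes, 1 probe each, in wild-type lung (circles) and Rosa26-Foxm1 lung (squares), with the floor as a dotted line. The red square lies left of the circle for every gene, furthest for Calcrl (7.18 against 3.24) and least for Ramp2 (130 against 122).

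Promoter windows show the letters around the start sites of the genes that stood furthest apart, and of Edn1, whose promoter is a textbook case of control by Gata factors. They run from 250 bases before to 50 after the start, 5′ to 3′ on the gene's strand, and come from RefSeq on GRCm38.p6. Capitals mark matches on either strand to 6 motifs. The forkhead core searched for was TAAACA. For Klf factors the letters were CCACCC, and for the Ets family GGAAG. The motif of Gata factors was spelled AGATAA. Hypoxia elements were searched for by their core ACGTG, and cyclic AMP elements as TGACGTCA. Matches of different motifs did not overlap in the windows printed. The windows are Calcrl at chr2:84425217-84425516 on the minus strand, the further downstream of 2 Gucy1a1 starts at chr3:82145024-82145323 on the minus strand, S1pr3 at chr13:51408368-51408667 on the plus strand and Edn1 at chr13:42301226-42301525 on the plus strand.
Calcrl: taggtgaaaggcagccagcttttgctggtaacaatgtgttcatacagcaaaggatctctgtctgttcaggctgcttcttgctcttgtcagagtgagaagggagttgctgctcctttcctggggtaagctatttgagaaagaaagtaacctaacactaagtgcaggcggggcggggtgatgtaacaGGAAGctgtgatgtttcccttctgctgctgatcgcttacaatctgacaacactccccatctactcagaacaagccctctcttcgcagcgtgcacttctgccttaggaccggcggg
Gucy1a1: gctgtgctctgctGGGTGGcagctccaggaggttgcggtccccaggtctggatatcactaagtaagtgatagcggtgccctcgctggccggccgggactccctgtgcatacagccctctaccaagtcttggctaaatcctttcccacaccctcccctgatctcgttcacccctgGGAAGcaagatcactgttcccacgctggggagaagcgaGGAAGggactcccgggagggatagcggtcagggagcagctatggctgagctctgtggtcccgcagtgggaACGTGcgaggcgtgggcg
S1pr3: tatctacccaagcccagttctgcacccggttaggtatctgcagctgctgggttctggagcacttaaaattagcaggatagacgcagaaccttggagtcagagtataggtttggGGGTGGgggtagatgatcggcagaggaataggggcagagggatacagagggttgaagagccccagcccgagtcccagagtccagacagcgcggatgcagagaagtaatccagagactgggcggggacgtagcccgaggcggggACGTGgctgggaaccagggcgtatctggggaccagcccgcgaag
Edn1: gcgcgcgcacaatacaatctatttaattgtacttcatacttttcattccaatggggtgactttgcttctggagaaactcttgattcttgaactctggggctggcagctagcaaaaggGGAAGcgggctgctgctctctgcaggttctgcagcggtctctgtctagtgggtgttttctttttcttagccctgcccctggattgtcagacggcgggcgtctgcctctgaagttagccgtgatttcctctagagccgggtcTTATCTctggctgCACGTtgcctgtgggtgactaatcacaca

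The 7 members with a window were Ace, Calcrl, Edn1, Ednrb, Gucy1a1, Gucy1b1 and S1pr3, with 9 windows in all. Nos3, Ramp2 and S1pr1 had none in the table. The forkhead core, the kind of site Foxm1 binds, was in 0 of the 9, and in 13.4% of all 32851 windows of 300 bases. An Ets core, the binding site of a factor family with many endothelial members, was in 6 of 9 and in 71.4% of all windows. Klf boxes were in 4 of 9 windows (31.5% of all). Hypoxia element cores were in 3 of 9 (19.6%), among them S1pr3, 7 bases past its RefSeq start. The Gata site was in 1 of 9, in Edn1, 9 bases past the RefSeq start used here, and in 11.2% of all. Whether Edn1 transcripts also start elsewhere was not examined. No member window held the cyclic AMP element, found in 1.79% of all. These are matches of letters, and nothing about binding follows from them.

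In the nitric oxide branch, the receptor end was lower by more than the source. Nos3 read 4.81 (normalised intensity, as for all levels here) in wild-type lung against 3.65, 1.32-fold lower with a log2 difference of -0.40. Gucy1a1, the alpha subunit of the cyclase, was at 13.9 against 6.30, 2.20-fold lower at -1.14. The Gucy1a1 value was 3.69 times the probe SD below 0 and that of Nos3 1.28 times. Between the pair the gap was 0.74, which is 1.70 times the probe SD of a gap between 2 probes (0.44). Gucy1b1, the gene next to Gucy1a1 on chromosome 3, was not measured, so nothing can be said of the second subunit.

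Other genes of nitric oxide and cyclic GMP signalling lay on both sides of 0. Of 32 on the list 20 had a probe and 16 were measured, with a median of -0.31, and 5 were lower and 0 higher by 1.5-fold or more. Among all measured genes 8.45% were lower and 7.08% higher by that size, the shares to set beside each list count below. Pde5a, the phosphodiesterase that breaks down cyclic GMP and the target of sildenafil, was 4.63 against 2.47 (-0.91). Cav1, the caveolar protein that holds Nos3 inactive, was 185 against 104 (-0.83). Npr2, the receptor guanylate cyclase for C-type natriuretic peptide, was at -0.82 and the cyclic GMP kinase gene Prkg2 at -0.64, or -0.50 with the trend on gene length removed. Gch1, which makes the synthase cofactor tetrahydrobiopterin, was highest at 0.52 and the atrial peptide gene Nppa next at 0.40. Without Nos3 and Gucy1a1, 4 of 14 were at least 1.5-fold lower and the median was -0.19.

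For endothelin, ligand and receptor differed by almost the same amount. Edn1 read 22.7 on the wild-type array against 16.3, 1.40-fold lower (-0.48). Ednrb, the receptor, was at 15.2 against 10.7, 1.42-fold lower (-0.51). Both values were between 1 and 2 times the probe SD, and they lay 0.03 apart. Ece1, the enzyme that cuts the endothelin precursor into the active peptide, was 361 against 229 (-0.65), and -0.44 with median scaling, where it no longer reached 1.5-fold. Of 5 measured genes of 8 on the list, Ece1 was the 1 lower by 1.5-fold or more, with 0 higher. The list's median was -0.48, but 0.18 over the 3 measured genes without Edn1 and Ednrb. Edn3 (0.22) and Ece2 (0.18) were the highest, and no probe carried the contractile receptor gene Ednra alone.

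The adrenomedullin receptor gave the widest gap within a pair. Calcrl, the seven-helix receptor, read 7.18 on the wild-type array against 3.24, 2.22-fold lower (-1.15), and 84 of 9518 measured genes had a lower difference. Ramp2, the accessory protein that carries it to the surface and makes it an adrenomedullin receptor, was at 130 against 122 (-0.08), within the probe SD, and 0.03 with median scaling. Calcrl thus stood 1.06 below Ramp2 on the log2 scale, 2.44 times the probe SD of such a gap. With the trend on gene length removed the gap was narrower, with Calcrl at -1.02 and Ramp2 at -0.31. The other accessory proteins were at -0.08 for Ramp3 and 0.35 for Ramp1, which makes Calcrl a CGRP receptor. Adm, the adrenomedullin gene itself, was at 23.0 against 20.4 (-0.17), and Ackr3, a scavenging receptor for the peptide, at -0.46.

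Of 9 measured genes on the adrenomedullin and CGRP list of 11, Calcrl was the 1 lower by 1.5-fold or more, with 0 higher. That is 11.1%, near the 8.45% of all measured genes. The median was -0.17 with and without the 2 members. Calcr, the calcitonin receptor gene, was next lowest at -0.51 and close to the floor. Crcp, a component gene of CGRP receptor signalling, was next highest at 0.22, but the dimmer of its 2 probes was at -0.05.

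Ace was lower by an amount near that of the endothelin pair. It read 34.7 on the wild-type array against 24.4, 1.42-fold lower (-0.51), at 1.64 times the probe SD. The 1 receptor gene of angiotensin II above the floor, Agtr1a, which contracts vessels, was at 50.9 against 29.4 (-0.79). Of 16 renin-angiotensin and kinin genes 14 had a probe, 8 were measured and 6 were below the floor on both arrays, among these the angiotensinogen gene Agt. Lower by 1.5-fold or more were 2, Agtr1a and the mast cell chymase gene Cma1 (-0.77), with 0 higher. The median was -0.28, and -0.20 without Ace. The pair of Cma1 probes disagreed, with 0.63 for the dimmer one. Bdkrb1 (0.02, and -0.02 with median scaling) and the aminopeptidase gene Enpep (0.02) were the highest.

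The sphingosine 1-phosphate receptors ranged from -1.07 for S1pr3 to -0.09 for S1pr2. S1pr1 read 156 on the wild-type array against 107, 1.46-fold lower (-0.54). S1pr3, which also couples to contraction and is found in vessel wall cells, was at 15.7 against 7.48, 2.10-fold lower (-1.07). The gap of 0.53 between them was 1.21 times the probe SD of a gap, so this pair was not clearly apart. With the trend on gene length removed the gap was narrower, with S1pr1 at -0.70 and S1pr3 at -1.10. S1pr5, a receptor of natural killer cells and patrolling monocytes, was also lower, at 17.3 against 9.08 (-0.93), whereas S1pr4 (-0.15) and S1pr2 (-0.09) lay within the probe SD. Of the kinases that make the lipid, Sphk2 was at 0.55 and Sphk1 at 0.05, or -0.08 with the trend on gene length removed. Of 13 measured genes on this list of 16, 2 were lower by 1.5-fold or more (S1pr3 and S1pr5) and 0 higher, and the phosphatase gene Plpp2 was highest at 0.57. The median was -0.35, and -0.31 without S1pr1 and S1pr3.

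**Figure D2:**
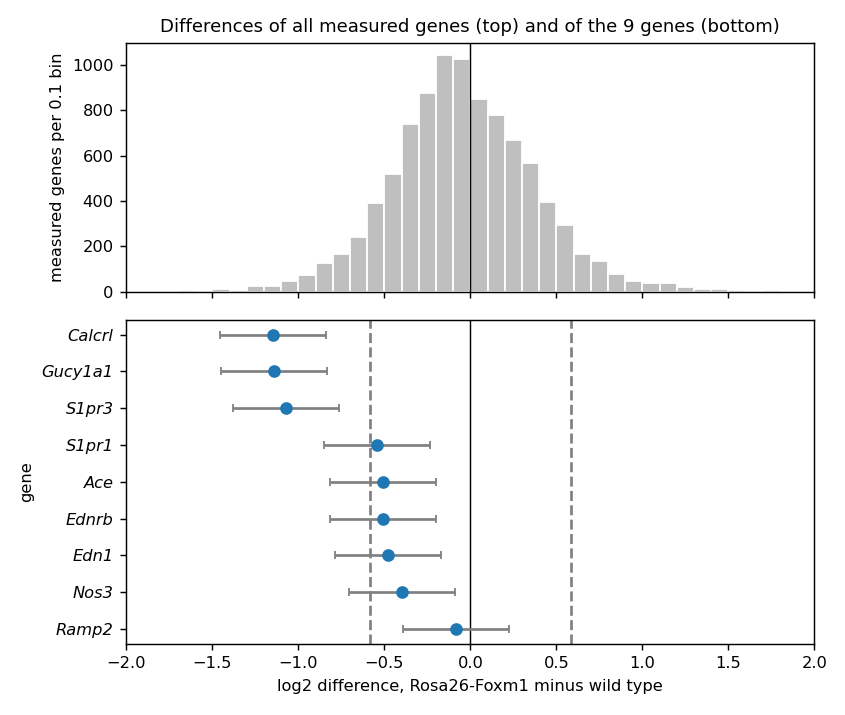
Top, the number of measured genes in each 0.1 bin of log2 difference, with the 42 genes beyond 2 in size outside the axis. Bottom, the 9 genes with bars of 1 probe SD (0.31) and dashed lines at 1.5-fold; Calcrl, Gucy1a1 and S1pr3 lie near -1.1, and the bar of Ramp2 spans 0.

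Receptors of other lipid mediators were not lower as a list. Of 24 genes 20 had a probe and 12 were measured, with 6 below and 6 above 0 and a median of -0.05. By 1.5-fold or more, 1 was higher (Ptgir) and 1 lower (Ptgfr). At 8.33% lower, the list was close to the 8.45% of all measured genes. Ptgir, the receptor for the dilator prostacyclin, was the highest, with 10.5 on the wild-type array against 19.6 (0.90). Tbxa2r, the receptor for the constrictor thromboxane, was next at 0.45. Ptgfr, the receptor for prostaglandin F2 alpha, was lowest at -0.73, followed by the formyl peptide and lipoxin receptor gene Fpr2 at -0.55.

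Further genes of vascular tone were mostly lower. Of 37 listed receptors, channels and kinases 18 were measured, 17 of them below 0, beside 56.0% of all measured genes. Of these 18, 7 were lower and 1 was higher by 1.5-fold or more, and the median was -0.48. Among the 7, Eng, Tek (-0.65) and Aplnr (-0.86) are counted again with the cell type markers below. Abcc9 (-0.17), not among the 7, is counted there too. Vipr2 and Vipr1, the receptors for the dilator vasoactive intestinal peptide, were the lowest at -1.01 and -0.89. Vipr1 read 1.90 on the wild-type array against 1.02, the latter close to the floor. Htr2b, a serotonin receptor gene linked to pulmonary hypertension, was the exception at 2.89 against 6.59 (1.19). The endothelial receptor genes Eng, Acvrl1 and Bmpr2, of the BMP pathway, were at -0.87, -0.63 and -0.53. With median scaling Acvrl1 (-0.56) and Tek (-0.54) no longer reached 1.5-fold, which left 5 of the 18. With the trend on gene length removed Tek was at -0.49 and the count was again 5. Rhoa, the small GTPase that sensitises muscle to calcium, was at -0.01, or 0.18 with median scaling. The vasopressin receptor gene Avpr1a, next highest after Htr2b, was at -0.0034, or 0.02 with loess scaling. Over the 72 measured genes of all 7 lists that are not among the 10, the median was -0.28. Of these 72, 16 (22.2%) were at least 1.5-fold lower and 2 higher, beside 8.45% and 7.08% of all measured genes. The 7 lists were also chosen with earlier results of these data known, so nothing is read from these shares.

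**Figure D3:**
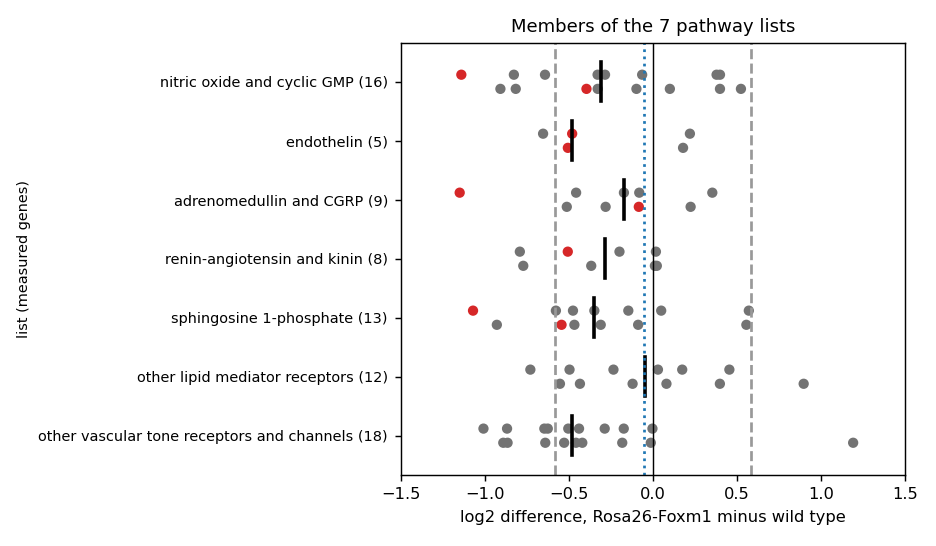
Log2 difference of each measured gene of the 7 pathway lists (number measured in brackets), with the listed members in red, other genes in grey, list medians as black bars, the median of all measured genes as a dotted line and 1.5-fold as dashed lines. List medians run from -0.48 for endothelin, which is the value of Edn1, and for other vascular tone genes to -0.05 for other lipid mediator receptors, with Ptgir and Htr2b alone beyond 1.5-fold on the right.

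Endothelial markers, of which Eng and Tek were also on the vascular tone list, were lower too. How much of the difference in the 10 genes moves with these markers was not tested. All 18 measured of 20 pan-endothelial markers were below 0, beside 56.0% of all measured genes. At least 1.5-fold lower were 12 of the 18, beside 8.45% of all measured genes. That count depended on the scaling. With median scaling Kdr (-0.55), Tek (-0.54), Sox17 (-0.58) and Robo4 (-0.56) fell short of 1.5-fold. With loess scaling Sox17 (-0.57) and Robo4 (-0.54) did. The median of the 18 markers was -0.70 (-0.57 with median scaling), with a summed intensity of 3311 on the wild-type array against 2025. Pecam1 was at -1.08, Cdh5 at -0.94, and the ends of the list were Epas1 (-1.10) and Egfl7 (-0.06, or 0.04 with median scaling). In bulk lung, fewer cells of a type and less RNA per cell cannot be told apart. Taken as a log2 difference from that median, Calcrl lay 0.45 and Gucy1a1 0.44 below it, lower than all 18 markers. S1pr3 was -0.37 from it, with 2 markers lower still. Nos3 (0.30), Edn1 (0.22), Ednrb (0.19), Ace (0.19), S1pr1 (0.15) and Ramp2 (0.61) lay above the median. Calcrl (-1.15) and Gucy1a1 (-1.14) were within the probe SD of Epas1, the lowest marker. The members were chosen with these differences in view, so nothing is read from their rank among the markers.

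Markers of vessel subtypes and of the vessel wall were lower by less at their medians. The 10 measured capillary markers had a median of -0.47 and sums of 1326 and 1011, from Aplnr at -0.86 to Car4 at -0.11 (0.03 with median scaling). The 9 arterial, venous and lymphatic markers had a median of -0.42 and sums of 327 and 228, from Nr2f2 at -0.84 to Vwf at 0.49. Vwf was dim, at 1.56 on the wild-type array against 2.19, close to the floor. For smooth muscle and pericytes, where Gucy1a1 and S1pr3 are known to be expressed, the median over 14 genes was -0.26, with 3 at least 1.5-fold lower and sums of 525 and 417. Acta2 was at -0.40 and Myh11 at -0.52, and the ends were Postn (-0.81) and Rgs5 (0.23). Gucy1a1 (-1.14) and S1pr3 (-1.07) were lower than every gene of this list, a rank favoured by choosing the members with these differences in view.

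Other lung cell types did not share that direction throughout. The 12 lung epithelial markers had a median of -0.15, from Scgb1a1 at -0.53 to Sftpd at 0.94, and sums of 8133 and 7290. With median scaling that median was 0.07. Macrophage markers had a median of 0.24 over 10 genes (0.39 with median scaling and 0.14 with the dimmest probe of each gene), 4 at least 1.5-fold higher and 2 lower, from Siglecf at -1.26 to Gpnmb at 4.42, with sums of 1718 and 1830. The part of these marker differences in the values of the 10 genes was not tested.

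**Figure D4:**
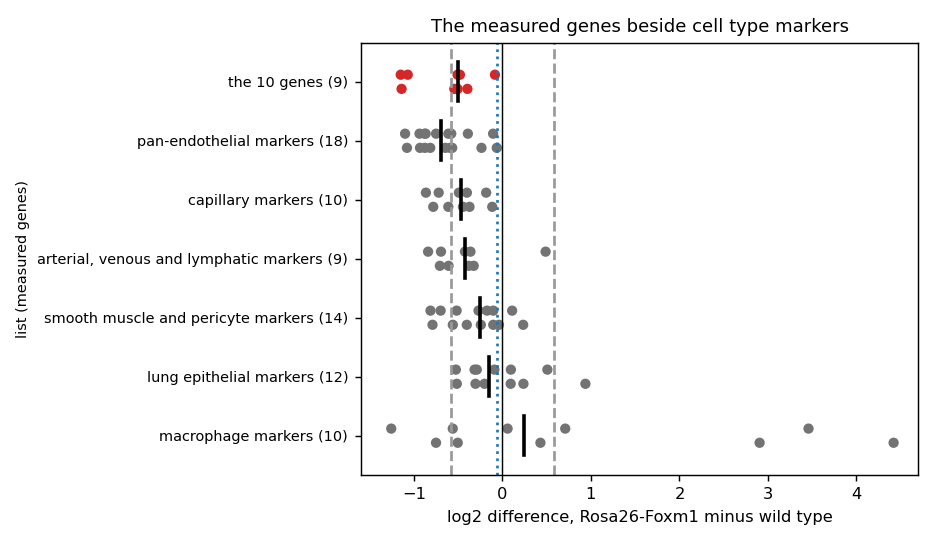
Log2 difference of the 9 measured genes (red) and of markers of 6 kinds of lung cells (grey), with list medians as black bars, the median of all measured genes as a dotted line and 1.5-fold as dashed lines. The median of the 9 genes (-0.51) lies between that of pan-endothelial markers (-0.70) and that of capillary markers (-0.47).

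Gene length moved with the differences over all genes, with a median of 0.09 in the shortest and -0.17 in the longest tertile by genomic span. The members span 1917 bases (Ramp2) to 94780 bases (Calcrl). With that trend removed Calcrl was at -1.02, Gucy1a1 at -1.05 and S1pr3 at -1.10, S1pr1 at -0.70 and Edn1 at -0.60 passed 1.5-fold, and Ramp2 was at -0.31. Calcrl, Gucy1a1 and S1pr3 were at least 1.5-fold lower under each of the 4 scalings and with the trend removed. Ramp2 alone among the 9 changed sign with the scaling.

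**Figure D5:**
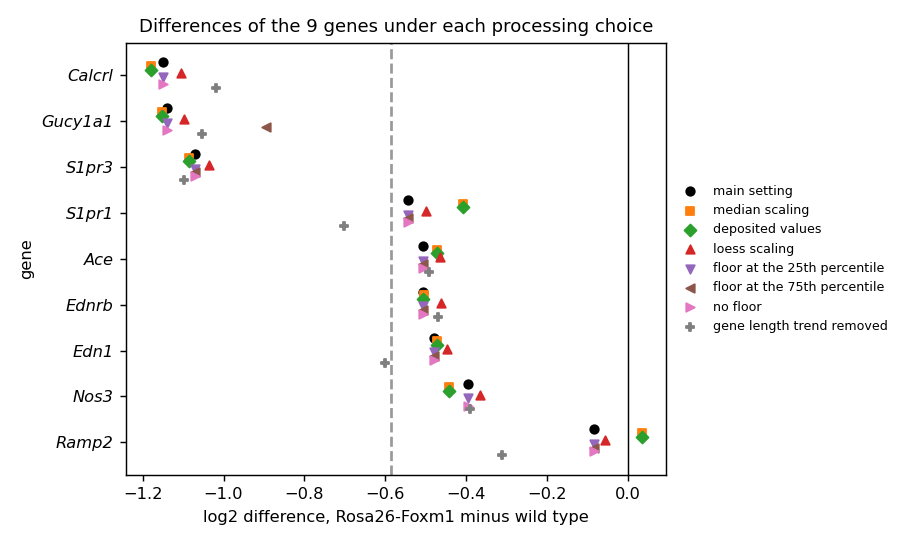
Log2 difference of the 9 measured genes under each processing choice, with 1.5-fold as a dashed line. Calcrl, Gucy1a1 and S1pr3 stay left of it wherever they were measured, S1pr1 and Edn1 cross it with the gene length trend removed, and Ramp2 lies on either side of 0.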

How the data were processed

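Pooled lung RNA was labelled with digoxigenin and read on 1 one-colour array per group, per the labels' protocols. The deposited values are intensities on a linear scale, already at a median of 1.00 per array. How the authors corrected and scaled them is not stated in the labels. Values were quantile normalised between the 2 arrays, raised to a floor at the 50th percentile (1.00) and log2 transformed, with a gene represented by its brightest probe. Of 33012 probes, 14411 had 1 gene, 247 had several and 18354 had none listed; 13832 of 13840 genes matched a RefSeq gene ID of GRCm38.p6. Genes at least 1.5-fold or 2-fold apart were counted. No test was possible, and precision is limited by having 1 array a group.

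The members and the 7 pathway and 6 marker lists were chosen with earlier results of these data known. Named are all members, Foxm1, genes of the pathway lists including each list's ends, Pecam1, Cdh5, Acta2, Myh11 and the ends of each marker list. Kdr, Sox17 and Robo4 are named because they fell short of 1.5-fold with median scaling. The alternatives tried were scaling by the median, by loess (span 0.3) or not at all, a floor at the 25th or 75th percentile or no floor, other probe choices and removal of the trend on gene length (lowess, span 0.5). When known changes were put into brighter genes of a copy of the wild-type array, the main functions recovered them. The noise added there was smaller than the probe SD, and dimmer genes and the alternatives were not tried. Python 3.11.15, pandas 2.3.3 and statsmodels 0.14.6 were used.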

Additional observations from a re-analysis of the deposited data

How the results depend on the processing

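The median of the 9 genes was between -0.60 and -0.47 under every alternative tried. The number of them at least 1.5-fold lower was 3, against 5 with the gene length trend removed and 2 of 7 with a 75th percentile floor. Under that floor Calcrl and Nos3 were no longer measured and Gucy1a1, below the floor in Rosa26-Foxm1 lung, was at least 1.86-fold lower. List counts at least 1.5-fold lower moved by over 1.5 times in 6 lists, and for sphingosine 1-phosphate from 2 to 3 with the gene length trend removed. For endothelin the count was 1, against 0 with median scaling, the deposited values or loess, and 2 with a 25th percentile floor or none. Under a 75th percentile floor the counts were 0 for adrenomedullin and CGRP, 3 for nitric oxide and cyclic GMP (otherwise 4 to 7), 4 for other vascular tone genes (otherwise 5 to 9) and 1 for renin-angiotensin and kinin, where fewer genes were measured. For renin-angiotensin the count was also 1 with the median over probes or the dimmest probe, since the Cma1 probes disagree. Among other lipid mediator receptors it was 4 with a 25th percentile floor or none, and 2 with the gene length trend removed. The median of lung epithelial markers turned from -0.15 to 0.067 with median scaling and to 0.066 with the deposited values; the cause was not tested. Of 81 measured pathway genes, 8 changed sign with the scaling or the gene length correction. No paired analysis was possible because each group has 1 array. Probes near the floor, such as Calcr, Bdkrb1, Vipr1 and Foxm1, have little signal over background.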

Other observations

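The protein-coding genes next to the 10 in the annotation were read for comparison, a choice made after the values were seen. Of 18 such neighbours 9 were measured, with a median log2 difference of -0.20. Of these, 6 were below 0, 3 at least 1.5-fold lower and 1 higher, and the range was -0.86 to 0.71. Among all measured genes 56.0% were below 0, 8.45% at least 1.5-fold lower and 7.08% higher.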
